A study of Mus musculus with 27 samples.

Results

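The metabotropic glutamate receptors described here are 7 genes, Grm2, Grm3, Grm4, Grm5, Grm6, Grm7 and Grm8, which were taken by symbol from a table of read counts that lists 55416 genes. RNA of the whole brain of single female fetuses was sequenced in 27 libraries, with 3 libraries in each of 9 groups of strain and gestational day (d12, d15 and d17, with the vaginal plug as d1). The 3 strains were AKR/J, an inbred short-lived strain, C57BL/6J, an inbred long-lived strain, and B6.Cg-Cav1tm1Mls/J, a congenic short-lived strain on a C57BL/6J background that lacks caveolin-1 and is named Cav1-null here. The fetuses came from timed matings within each strain without any treatment, and AKR/J differs from C57BL/6J over the whole genome, whereas the Cav1-null mice carry an engineered allele in every cell. The comparisons asked how expression changed in the early phase (d12 to d15) and the late phase (d15 to d17) of each strain and how the short-lived strains differed from C57BL/6J on each day.

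Metabotropic glutamate receptors are G protein-coupled receptors that adjust how neurons release and respond to glutamate, the main excitatory transmitter of the brain. Grm5 belongs to group I, which couples to Gq and phospholipase C, acts mostly on the receiving side of the synapse and already signals in the immature brain. Grm2 and Grm3 form group II, and Grm4, Grm6, Grm7 and Grm8 belong to group III. Both of these groups couple to Gi/o proteins, lower cyclic AMP and mostly restrain transmitter release, except that Grm6 serves the ON bipolar cells of the retina.

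The libraries held 26363697 to 39759702 counted reads, with a median of 29700746. Cav1 was at 0 to 0.551 CPM (reads per 1000000 counted reads of the library) in the Cav1-null libraries and at 6.36 to 43.0 CPM in the others, as the labels state. All 7 neuron markers examined were detected, with sums of 3344 to 6723 CPM outside the AKR/J d12 group. The 3 AKR/J d12 libraries stood apart. Their neuron markers summed to 1306, 1819 and 1483 CPM, their 7 erythroid markers to 68448, 35171 and 135006 CPM, against at most 17372 CPM in the other 24 libraries, and their 6 placenta and yolk sac markers to 1216, 228 and 34.5 CPM, against at most 65.5 CPM elsewhere, in replicate 3 of C57BL/6J d12. Replicate 3 of each d12 group was the lowest of its own group in the 5 forebrain markers, with 72.0 CPM in AKR/J (against 273 and 421 CPM), 335 CPM in C57BL/6J (against 757 and 806 CPM) and 221 CPM in Cav1-null (against 748 and 598 CPM). The same replicates were the highest of their groups in the 6 midbrain and hindbrain markers. They held 62.0 CPM in AKR/J (against 4.31 and 25.4 CPM) and 135 CPM in C57BL/6J (against 4.53 and 110 CPM). Cav1-null held 108 CPM (against 16.7 and 13.0 CPM). The part of these differences in the d12 comparisons was not tested. Replicate 2 of AKR/J d15 held 191 CPM of the 7 eye markers, against at most 7.23 CPM elsewhere. In whole brain, fewer cells of a type and less RNA per cell cannot be told apart.

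The genes differed in base composition, and the strain differences described further on moved with GC content. The stretches below are short examples, whose GC content does not always follow that of the whole transcript. Each is the coding sequence over an exon junction that the splice table counted, read from GRCm39 on the strand of the gene, with 60 bases of each exon and the bases on both sides of the join in capitals. The Grm2 stretch joins chr9:106524350-106524409 to chr9:106522617-106522676, and the Grm4 stretch joins chr17:27721621-27721680 to chr17:27692039-27692098, both on the minus strand. The Grm5 stretch joins chr7:87453213-87453272 to chr7:87624343-87624402, and the Grm7 stretch joins chr6:110623288-110623347 to chr6:110891288-110891347, both on the plus strand. The Grm8 stretch joins chr6:27981182-27981241 to chr6:27762437-27762496 on the minus strand.
Grm2: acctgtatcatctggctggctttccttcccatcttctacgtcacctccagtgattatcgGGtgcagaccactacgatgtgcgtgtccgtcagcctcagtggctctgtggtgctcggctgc
Grm4: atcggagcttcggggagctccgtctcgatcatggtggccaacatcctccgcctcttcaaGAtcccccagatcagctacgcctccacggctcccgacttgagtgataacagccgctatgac
Grm5: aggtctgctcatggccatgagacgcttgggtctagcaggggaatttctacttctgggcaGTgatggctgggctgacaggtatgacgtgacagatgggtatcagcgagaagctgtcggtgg
Grm7: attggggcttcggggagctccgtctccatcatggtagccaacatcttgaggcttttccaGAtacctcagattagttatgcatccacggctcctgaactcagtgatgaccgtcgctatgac
Grm8: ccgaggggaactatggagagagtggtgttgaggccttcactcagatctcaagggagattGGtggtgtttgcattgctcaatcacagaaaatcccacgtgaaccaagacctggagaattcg
The Grm4 and Grm7 stretches had the same base at 97 of 120 positions without a gap. At the 23 positions that differed, Grm4 had a G or C at 18 and Grm7 at 9, so that the GC content of these stretches was 59.2% in Grm4 and 51.7% in Grm7. Over the longest annotated transcript, the GC content was 61.6% for Grm4, 57.1% for Grm2, 54.8% for Grm6, 47.2% for Grm7, 45.7% for Grm3 and 41.9% for each of Grm5 and Grm8.

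The genes lie on 6 chromosomes of GRCm39. Grm5 spans chr7:87233376-87784594, Grm2 spans chr9:106520294-106533870, Grm3 spans chr5:9534069-9776088, Grm4 spans chr17:27641361-27740377 and Grm6 spans chr11:50741512-50757035. Grm7 (chr6:110622542-111544191) and Grm8 (chr6:27275118-28135177) share chromosome 6 with Cav1, at distances of 93.3 and 9.93 Mb. Grm2, Grm4, Grm6 and Grm7 each overlap an exon of a gene on the opposite strand. These neighbours reached at most 0.176 CPM (Gm28111, at Grm2), 0.953 CPM (Gm49789, at Grm4), 0.161 CPM (Gm12660, at Grm6) and 3.29 CPM (Gm20387, at Grm7). Exons of Grm8 overlap Gm52896 on the opposite strand and the microRNA gene Mir592 on the same strand, whose counts were not analysed here. The handling of strand in the counting is not given in the sources used here, so reads of these pairs cannot be told apart.

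Grm5, the group I receptor, had the lowest level per kilobase of exon of the 6 well-detected receptors in AKR/J d12 and the highest on d17 in all strains. Its levels were 0.616, 0.706 and 0.489 CPM in AKR/J d12, from 22, 20 and 14 reads, then 43.7, 38.8 and 47.2 CPM on d15 and 126, 136 and 152 CPM on d17. In C57BL/6J they were 13.6, 17.4 and 2.29 CPM on d12, 68.1, 75.3 and 103 CPM on d15 and 217, 173 and 194 CPM on d17. In the Cav1-null brain they were 15.7, 15.5 and 15.2 CPM on d12, 86.2, 91.4 and 85.9 CPM on d15 and 191, 208 and 200 CPM on d17. The days did not overlap in any strain, the AKR/J libraries lay below those of the other strains on every day, and replicate 3 of C57BL/6J d12 lay well below its group. That library also had the lowest neuron marker sum outside AKR/J d12, at 3344 CPM. By edgeR's quasi-likelihood test, Grm5 rose in the early phase by a log2 fold change of 5.68 ± 0.24 in the AKR/J brain (SE, adjusted p = 0.000157), 2.92 ± 0.64 for C57BL/6J (adjusted p = 0.0319) and 2.48 ± 0.09 for Cav1-null (adjusted p = 5.26e-06). Between d15 and d17 it rose by 1.72 ± 0.12 (adjusted p = 0.000444), 1.12 ± 0.21 (adjusted p = 0.0191) and 1.18 ± 0.07 (adjusted p = 4.47e-07) in the same order in edgeR. The early-phase values of AKR/J rest on the d12 libraries that stood apart, with neuron markers at 1306 to 1819 CPM and erythroid markers at 35171 to 135006 CPM, and the part of these in the rises of this and the other receptors was not tested.

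**Figure D1:**
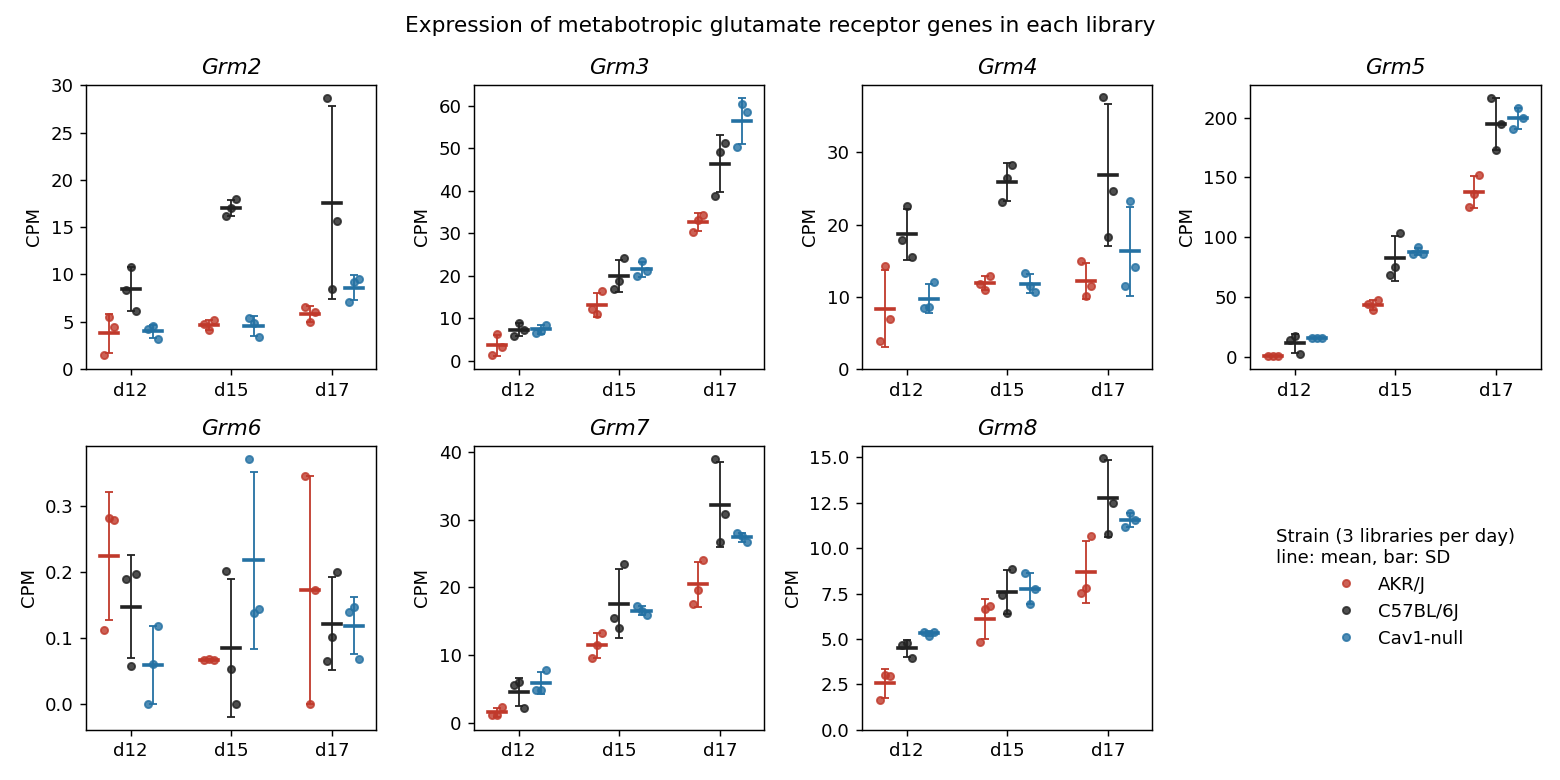
Level in CPM (vertical axes, each panel on its own linear scale) of each receptor gene in each of the 27 libraries (points) by gestational day, with the mean (line) and SD (bar) of the 3 libraries of a strain. The mean levels of Grm3, Grm5, Grm7 and Grm8 were higher on each later day in all strains, though the Grm8 changes were DE in 2 of 6 comparisons of days and those of Grm7 in 5, Grm2 and Grm4 had their highest mean of each day in C57BL/6J, and Grm6 stayed at or under 0.372 CPM.

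Grm3, the group II receptor found in both neurons and astrocytes in the mature brain, rose in both phases of every strain. It stood at 1.26, 6.21 and 3.22 CPM in AKR/J d12, 12.1, 10.9 and 16.4 CPM on d15 and 30.2, 33.2 and 34.3 CPM on d17. The corresponding levels were 5.73, 8.88 and 7.14, then 16.8, 18.8 and 24.2, then 38.8, 49.1 and 51.3 CPM in C57BL/6J. In the Cav1-null brain they were 6.53, 7.01 and 8.49, then 19.9, 23.5 and 21.2, then 50.2, 60.5 and 58.6 CPM. The days did not overlap within any strain. The log2 fold changes of the early phase lay close together, at 1.53 ± 0.42 for AKR/J, 1.50 ± 0.23 for C57BL/6J and 1.53 ± 0.14 for Cav1-null, with edgeR adjusted p-values of 0.0282, 0.0182 and 0.00037. Those of the late phase were 1.35 ± 0.17, 1.08 ± 0.17 and 1.39 ± 0.09, with edgeR adjusted p-values of 0.00168, 0.0106 and 9.96e-07. The Grm3 call for AKR/J d12 to d15 was lost without AKR/J d12 replicate 3 (log2 fold change 1.63, adjusted p = 0.0662 in edgeR), d15 replicate 1 (1.60, adjusted p = 0.0700) or d15 replicate 3 (1.33, adjusted p = 0.111), each with fewer libraries.

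Grm2, the other group II receptor and a presynaptic autoreceptor of many forebrain synapses, differed in its course. It stood at 1.45, 5.47 and 4.41 CPM in AKR/J d12, 4.71, 4.11 and 5.17 CPM on d15 and 6.54, 4.93 and 6.03 CPM on d17, and all 3 days overlapped. In C57BL/6J it was at 8.31, 10.8 and 6.16 CPM on d12, at 16.2, 17.0 and 17.9 CPM on d15 and at 28.7, 8.48 and 15.7 CPM on d17. The d17 libraries of C57BL/6J enclosed those of d15, with replicate 1 far above and replicate 2 below them. In the Cav1-null brain it was at 4.21, 4.52 and 3.20 CPM on d12, 5.44, 4.85 and 3.34 CPM on d15 and 7.09, 9.24 and 9.51 CPM on d17, and only the d17 libraries lay apart from the earlier days. In edgeR, Grm2 rose in C57BL/6J in the early phase (log2 fold change 1.05 ± 0.23, adjusted p = 0.032) and in Cav1-null between d15 and d17 (0.92 ± 0.19, adjusted p = 0.00294). Its other 4 day changes were not called, with log2 fold changes of -0.11 ± 0.42 and 0.36 ± 0.20 over the early and late AKR/J phases, -0.05 ± 0.42 from d15 to d17 for C57BL/6J and 0.16 ± 0.27 from d12 to d15 for Cav1-null. These values include TMM scaling factors, which over all 27 libraries were 0.679, 1.07 and 0.688 in AKR/J d12, and 2 of the values are negative although the mean CPM went up, from 3.78 to 4.67 CPM in AKR/J and from 17.0 to 17.6 CPM in C57BL/6J.

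Among the group III receptors, Grm7, a low-affinity receptor placed in presynaptic active zones, rose most. Its levels on d12, d15 and d17 were 1.16 to 2.31, 9.63 to 13.2 and 17.6 to 24.1 CPM in AKR/J, 2.26 to 6.02, 14.0 to 23.4 and 26.7 to 39.0 CPM in C57BL/6J, and 4.89 to 7.81, 15.9 to 17.2 and 26.7 to 28.0 CPM in Cav1-null. No 2 days of a strain overlapped. Early-phase log2 fold changes were 2.33 ± 0.42 for AKR/J (edgeR adjusted p = 0.00629), 1.97 ± 0.40 for C57BL/6J (0.0284) and 1.48 ± 0.19 for Cav1-null (0.00125). Late-phase changes were 0.88 ± 0.18 (edgeR adjusted p = 0.0104), 0.75 ± 0.26 (0.0916) and 0.72 ± 0.09 (9.31e-05), so that the C57BL/6J value missed the threshold. With GC content and length trends removed it was called, at 0.81 ± 0.23 (edgeR adjusted p = 0.0417). The AKR/J late-phase call was lost without AKR/J d17 replicate 2 (log2 fold change 0.91, adjusted p = 0.0505) or replicate 3 (0.73, adjusted p = 0.0559).

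Grm8, a high-affinity presynaptic receptor, was less abundant and moved less. Its levels on d12, d15 and d17 were 1.65 to 3.03, 4.81 to 6.80 and 7.55 to 10.6 CPM in AKR/J, 3.96 to 4.80, 6.43 to 8.85 and 10.8 to 15.0 CPM in C57BL/6J, and 5.16 to 5.39, 6.91 to 8.64 and 11.2 to 11.9 CPM in Cav1-null. Each day lay above the one before in every strain. It rose in the early phase of C57BL/6J (log2 fold change 0.80 ± 0.20, edgeR adjusted p = 0.0419) and between d15 and d17 of Cav1-null (0.57 ± 0.13, edgeR adjusted p = 0.00566). The other 4 log2 fold changes were 0.53 to 0.78 with edgeR adjusted p-values of 0.0639 to 0.113.

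Grm4, a presynaptic receptor best known from the cerebellum and basal ganglia, was called in neither phase of any strain. Its levels were 3.89, 14.3 and 6.85 CPM in AKR/J d12, 11.7, 11.0 and 12.9 CPM on d15 and 15.0, 10.2 and 11.5 CPM on d17. They were 17.9, 22.5 and 15.5, then 23.1, 26.4 and 28.2, then 37.6, 18.2 and 24.7 CPM in C57BL/6J, and 8.49, 8.62 and 12.0, then 13.3, 11.5 and 10.7, then 11.5, 23.2 and 14.2 CPM in Cav1-null. The days overlapped in each strain, except that C57BL/6J d15 lay above d12, and replicate 1 of C57BL/6J d17 was the highest for Grm4 as it was for Grm2. Its 6 log2 fold changes ran from -0.06 to 0.52, with edgeR adjusted p-values of 0.0891 to 0.909.

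Grm6, the retinal receptor, was close to the limit of detection. It had 0 to 10 reads per library and 110 reads in all, and was at 0 in 3 libraries, where a count of 0 allows a level of up to 0.0807 to 0.114 CPM for counting error alone. Whether both mates of a pair were counted is not given in the sources used here, and if they were, these limits are too low and the reads of Grm6 stand for fewer fragments. It did not pass the filter on low counts in any comparison. Without that filter, edgeR called it in 0 of 16 comparisons, with a smallest adjusted p of 0.319 and no unadjusted p under 0.05. In AKR/J d15 replicate 2, the library with the high sum of eye markers, it had 2 reads, as in the other AKR/J d15 libraries.

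Of the 7 receptors, 6 passed the filter in every comparison. In the early phase, 3 of the 6 were DE (adjusted p under 0.05 in edgeR) in AKR/J, where 28.9% of all genes tested were, 5 in C57BL/6J (14.9% of all genes) and 3 in Cav1-null (23.4%). In the late phase, 3 were DE in AKR/J (22.1% of all genes), 2 in C57BL/6J (13% of all genes) and 5 in Cav1-null (27.3%). Every DE receptor rose. With the strains in the same order, the median log2 fold change of the 6 receptors was 1.16, 1.28 and 1.00 from d12 to d15 and 0.72, 0.69 and 0.82 from d15 to d17, beside medians of -0.04 to 0.03 over all genes tested. The C57BL/6J counts changed when single libraries were left out. The early-phase count was 0 when d12 replicate 1 or a single d15 library was left out, and the late-phase count was 0 without d15 replicate 1, d15 replicate 2 or d17 replicate 3. The number of DE genes over the whole table fell as well, from 2850 to between 0 and 330 under the early-phase omissions and from 2594 to between 160 and 363 under the late-phase ones. The late-phase count of Cav1-null went from 5 to 1 with all 27 libraries in 1 model, where the DE genes over the whole table went from 5530 to 829. Under these omissions the Grm5 log2 fold changes of C57BL/6J d12 to d15 were 2.74 to 3.07, with edgeR adjusted p-values of 0.0847 to 0.132, and those of Grm3 and Grm7 were 1.35 to 1.64 and 1.73 to 2.12. In the late phase they were 0.95 to 1.03 for Grm3 and 0.98 to 1.12 for Grm5, close to the values with all libraries.

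**Figure D2:**
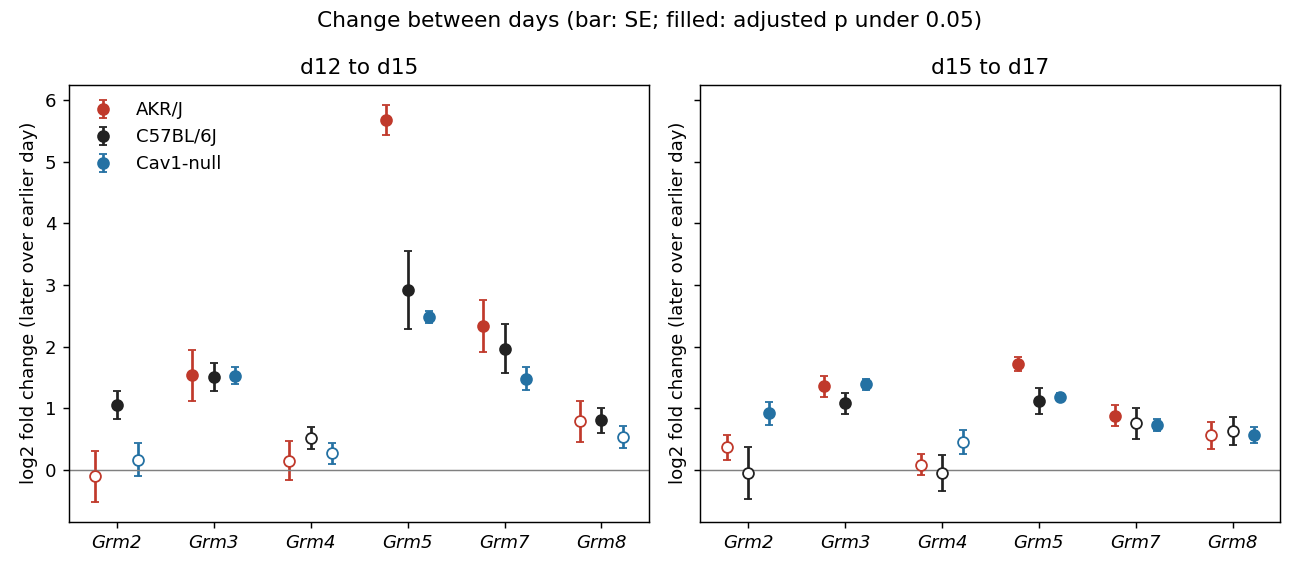
Log2 fold change between days (vertical axis, later over earlier day) of the 6 receptors that passed the filter, for the early phase (left) and the late phase (right) in the 3 strains. Bars are SE from 3 libraries a day and filled points are DE in edgeR; Grm3 and Grm5 are filled in all 6 comparisons and Grm4 in none.

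Per kilobase of annotated exon, the make-up of receptor mRNA shifted with gestational day. On d12, Grm4 had the highest mean level per kilobase in AKR/J (1.22 CPM per kb) and C57BL/6J (2.73 CPM per kb), and lay apart from the next receptor in C57BL/6J but overlapped it in AKR/J. In Cav1-null, Grm5 (1.45 CPM per kb) and Grm4 (1.42 CPM per kb) overlapped. On d15 and d17, Grm5 was highest in all strains and its libraries did not overlap those of the next receptor. Grm5 made up 2.38%, 36.9% and 52.1% of the summed level of the 7 genes on d12, d15 and d17 for AKR/J, 12.9%, 37.0% and 47.6% for C57BL/6J and 24.0%, 47.1% and 51.2% for Cav1-null. The share of Grm4 was 40.8%, 15.9% and 7.31% for AKR/J, 38.2%, 18.6% and 10.1% for C57BL/6J and 23.3%, 9.95% and 6.46% for Cav1-null. The sum itself went from 2.90 to 24.7 CPM per kb for AKR/J, from 7.29 to 38.2 CPM per kb for C57BL/6J and from 6.06 to 36.4 CPM per kb for Cav1-null between d12 and d17. Grm3 was next to Grm5 on d17 in every strain, at 4.82, 6.86 and 8.35 CPM per kb in the brain of AKR/J, C57BL/6J and then Cav1-null fetuses, although in C57BL/6J it overlapped Grm7.

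**Figure D3:**
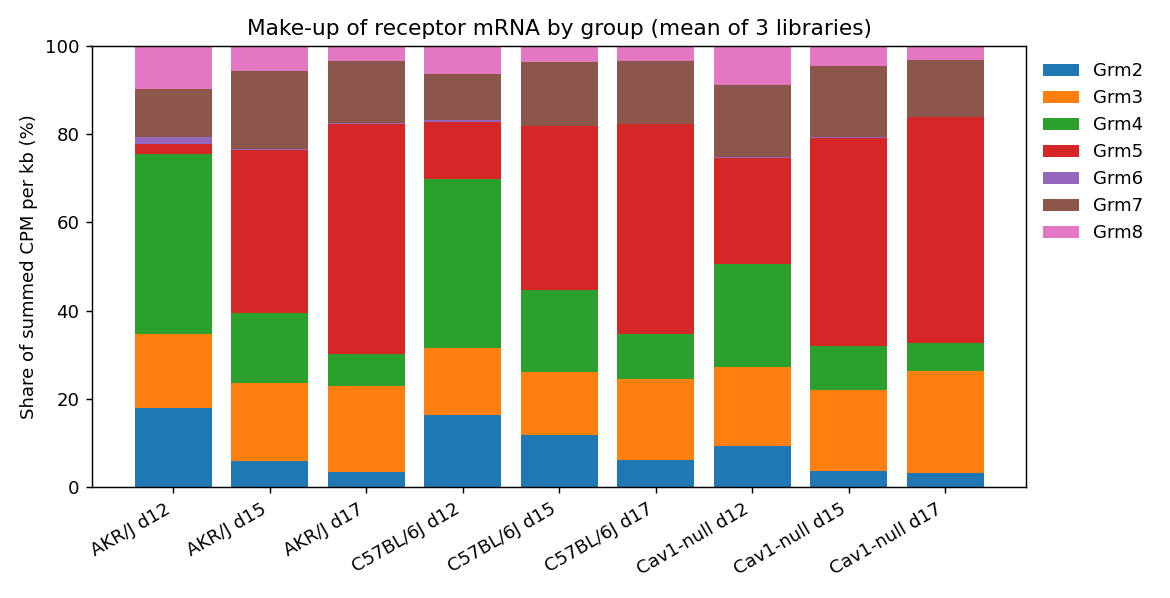
Share of each receptor gene in the summed level per kilobase of exon of the 7 genes (vertical axis, percent, mean of 3 libraries) in the 9 groups of strain and day. The share of Grm5 grows and that of Grm4 shrinks from d12 to d17 in each strain.

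Ordered by mean CPM, without scaling factors, the 9 groups of Grm3, Grm5, Grm7 and Grm8 followed gestational day before strain. For Grm5 the order ran from AKR/J d12 (0.604 CPM) over C57BL/6J d12 (11.1 CPM), Cav1-null d12 (15.5 CPM), AKR/J d15 (43.2 CPM), C57BL/6J d15 (82.3 CPM), Cav1-null d15 (87.8 CPM), AKR/J d17 (138 CPM) and C57BL/6J d17 (195 CPM) to Cav1-null d17 (200 CPM). Of these neighbours, the C57BL/6J and Cav1-null groups of the same day overlapped and the others did not. The order was the same for Grm3, in which AKR/J d12 and C57BL/6J d12 also overlapped. For Grm7 the Cav1-null groups came below C57BL/6J on d15 and d17, and for Grm8 on d17, with overlap. Neighbours of different days overlapped as well, namely C57BL/6J d15 and AKR/J d17 for Grm7, and Cav1-null d12 and AKR/J d15 and also Cav1-null d15 and AKR/J d17 for Grm8. With the scaling factors of the fit, Cav1-null d15 came below C57BL/6J d15 for Grm5, Grm3 and Grm8, by log2 fold changes of -0.08, -0.07 and -0.14 that were not called. Grm2 and Grm4 followed neither day nor strain throughout. Their AKR/J and Cav1-null groups lay among one another, from AKR/J d12 over Cav1-null d12, Cav1-null d15 and AKR/J d15 to AKR/J d17, and for Grm2 the mean of Cav1-null d17 (8.61 CPM) was above that of C57BL/6J d12 (8.43 CPM). Their highest means were those of C57BL/6J d15 (17.0 CPM for Grm2, 25.9 CPM for Grm4) and C57BL/6J d17 (17.6 and 26.8 CPM), and C57BL/6J d15 did not overlap the group below it, whereas all lower neighbours overlapped.

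On d15, Grm2 and Grm4 were lower in both short-lived strains than in C57BL/6J. Grm2 was at 4.67 ± 0.533 CPM (SD, n = 3) in AKR/J and 4.54 ± 1.08 CPM in Cav1-null, against 17.0 ± 0.857 CPM in C57BL/6J. Grm4 was at 11.9 ± 0.951 and 11.8 ± 1.34 CPM against 25.9 ± 2.60 CPM. Neither gene overlapped between C57BL/6J and either short-lived strain, but these comparisons share the C57BL/6J libraries and are not independent. Marker sums on d15 lay apart as well. Cerebellum markers were at 307 to 411 (AKR/J) and 297 to 314 CPM (Cav1-null) against 431 to 460 CPM. Astrocyte markers were at 207 to 261 and 167 to 202 against 317 to 375 CPM, and erythroid markers at 1991 to 3011 and 2184 to 2732 against 577 to 691 CPM. Progenitor markers were at 747 to 756 CPM in Cav1-null against 1412 to 1639 CPM. The part of these in the receptor differences was not tested. Against C57BL/6J, the log2 fold change of Grm2 was -2.03 ± 0.14 (edgeR adjusted p = 0.000168) in AKR/J and -2.09 ± 0.17 (edgeR adjusted p = 2.9e-06) in Cav1-null, and that of Grm4 was -1.29 ± 0.12 (edgeR adjusted p = 0.000336) and -1.31 ± 0.12 (edgeR adjusted p = 5.95e-06). In AKR/J, Grm3 (-0.76 ± 0.20), Grm5 (-1.09 ± 0.16) and Grm7 (-0.78 ± 0.22) were lower as well, with edgeR adjusted p-values of 0.0197, 0.00172 and 0.0258, which made 5 of 6 receptors DE, where 41.1% of all genes tested were. Without AKR/J d15 replicate 1 or 2 or without C57BL/6J d15 replicate 3, Grm3 and Grm7 were not called and 3 receptors were DE, with 5828, 7730 and 6084 DE genes over the whole table in place of 8089. The log2 fold changes in these omissions were -0.71 to -0.62 for Grm3 and -0.76 to -0.53 for Grm7, and Grm3 was also not called without C57BL/6J d15 replicate 2 (-0.81, edgeR adjusted p = 0.0598). In Cav1-null only Grm2 and Grm4 were DE, 2 of 6, where 58.6% of all genes were, and the other 4 log2 fold changes were -0.27 to -0.07. With the trends of GC content and transcript length removed, as described further on, Grm2 was still called in both strains at -1.06 in Cav1-null and -1.25 in AKR/J, while Grm4 shrank to -0.21 in Cav1-null, where its call was lost, and to -0.45 in AKR/J.

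The reads over the Grm2 junction printed above gave a view of the same d15 difference from the splice table, although they are largely the same sequenced fragments. It had 43, 22 and 33 reads in C57BL/6J d15, against 6, 2 and 7 in AKR/J d15 and 8, 4 and 7 in Cav1-null d15. The printed Grm4 junction had 30, 33 and 35 reads in C57BL/6J d15, 12, 9 and 11 in AKR/J d15 and 3, 2 and 3 in Cav1-null d15. At another Grm4 junction, with an intron at chr17:27669240-27670878, there were 34, 27 and 49 reads in C57BL/6J d15, 9, 7 and 10 in AKR/J d15 and 7, 0 and 15 in Cav1-null d15, where the 0 may be a removed value. C57BL/6J lay above both short-lived strains at each of these junctions, but the reads are not scaled for depth, and the C57BL/6J d15 libraries held 37191332 to 39759702 reads against 26846313 to 30160663 in the others.

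On the other days fewer receptors were DE. On d12, AKR/J had 1 DE receptor of 6, where 28.6% of all genes were DE. This was Grm5, lower than in C57BL/6J by a log2 fold change of -3.79 ± 0.72 (edgeR adjusted p = 0.0118), with its libraries below all 3 of C57BL/6J. The call was lost without C57BL/6J d12 replicate 2 (-3.29, adjusted p = 0.0622), where 25 genes in all were DE in place of 5529, and 2 receptors and 8009 genes were DE without AKR/J d12 replicate 2. The same AKR/J libraries held less neuron and more erythroid marker RNA, and replicates 1 and 2 more placenta and yolk sac marker RNA, as given above, and the part of these in the Grm5 difference was not tested. On d17, 0 of 6 receptors were DE in AKR/J (0.742% of all genes), although all 6 were lower, with log2 fold changes of -1.65 to -0.52 and unadjusted p under 0.05 for each, as for 4275 genes in all. DESeq2 called 3 receptors and 1327 genes, and without C57BL/6J d17 replicate 2, the library low in Grm2 and Grm4, edgeR called all 6 and 5478 genes in place of 150. With each library left out in turn, the log2 fold change of Grm2 on d17 ran from -1.98 to -1.02.

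The Cav1-null brain had 0 DE receptors against C57BL/6J on d12, where 0% of all genes passed in edgeR. There, 4309 genes and 2 receptors, Grm2 and Grm4, had an unadjusted p under 0.05, and DESeq2 called 2027 genes and 2 receptors. The log2 fold changes were -1.15 ± 0.32 for Grm2 and -1.03 ± 0.22 for Grm4, and both were called in edgeR without C57BL/6J d12 replicate 3, where 1500 genes in all were called. On d17 there were again 0 DE receptors (0.0491% of all genes), with 1538 genes and 1 receptor at an unadjusted p under 0.05 and 0 receptors called by DESeq2. Grm2 was at -1.10 ± 0.42 and Grm4 at -0.78 ± 0.35 on that day, and Grm2 was called without C57BL/6J d17 replicate 2 (-1.46, edgeR adjusted p = 0.0243), with 2865 genes called in place of 10. With each library left out in turn, this Grm2 value ran from -1.46 to -0.47. Grm3, Grm5, Grm7 and Grm8 differed by log2 fold changes of -0.27 to 0.39 between Cav1-null and C57BL/6J over the 3 days.

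Base composition moved with these strain differences. When all genes tested were ordered by the GC content of their longest transcript and cut into 10 equal groups, the median log2 fold change on d15 went from 0.73 in the lowest to -0.62 in the highest group for Cav1-null against C57BL/6J, and from 0.53 to -0.43 for AKR/J against C57BL/6J. The lowest group was above the highest in all 6 strain comparisons. The day comparisons showed trends as well. From the lowest to the highest group, the median went from 0.43 to -0.20 in C57BL/6J d15 to d17. In AKR/J d12 to d15 it went from -0.38 to 0.18, and the other day comparisons spanned less. Grm2 and Grm4 were the tested receptors richest in GC. With the trends of GC content and transcript length removed from each library, the d15 values of Grm2 were -1.06 ± 0.15 in Cav1-null (edgeR adjusted p = 0.000143) and -1.25 ± 0.15 in AKR/J (edgeR adjusted p = 0.0021). Grm4 was at -0.21 ± 0.11 in Cav1-null, which was no longer called (edgeR adjusted p = 0.147), and at -0.45 ± 0.12 in AKR/J (edgeR adjusted p = 0.0307). Grm8 became called in both, at -0.47 ± 0.17 (edgeR adjusted p = 0.0385) and -0.77 ± 0.21 (edgeR adjusted p = 0.0315). On d12 the Cav1-null values shrank to -0.50 ± 0.27 for Grm2 and -0.37 ± 0.16 for Grm4 (edgeR adjusted p = 0.514 and 0.424). On d17, Grm2 and Grm4 were then at -0.58 ± 0.25 and -0.26 ± 0.19 in Cav1-null and at -1.02 ± 0.26 and -0.54 ± 0.14 in AKR/J, none of them called. On d12 the AKR/J values of Grm2 and Grm4 turned to 0.20 and 0.12, whereas Grm5 stayed at -3.88 ± 0.73 (edgeR adjusted p = 0.0153).

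**Figure D4:**
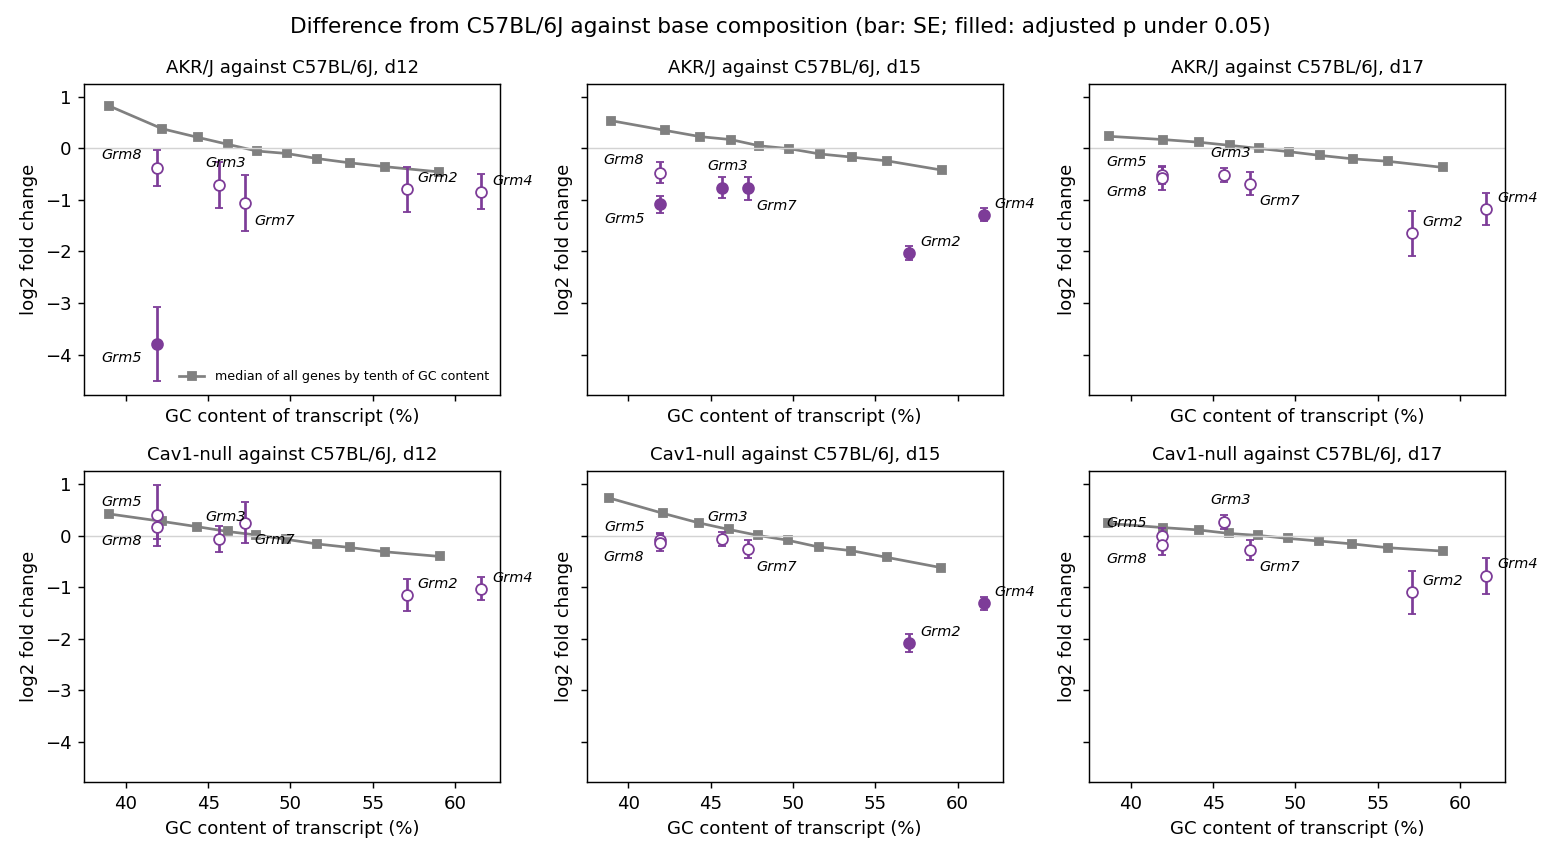
Log2 fold change of AKR/J (top) and Cav1-null (bottom) against C57BL/6J on each day (vertical axis) against the GC content of the longest transcript (horizontal axis, percent) for the 6 receptors tested, with SE bars from 3 libraries a group and filled points for DE receptors. Grey squares give the median of all genes in 10 equal groups by GC content and fall from left to right in each panel; on d15, Grm2 and Grm4 lie below the grey squares nearest in GC content in both strains.

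The change between days was also compared between strains with an interaction term over 12 libraries. No receptor was called in the 4 comparisons, in which edgeR called 0.0711% (early phase) and 0.00468% (late phase) of all genes for AKR/J and 0.00472% and 0.252% for Cav1-null. Unadjusted p-values were under 0.05 for 3432, 1617, 3181 and 4683 genes and for 2, 1, 1 and 0 receptors in the same order. The early-phase rise of Grm5 was larger in AKR/J than in C57BL/6J by 2.72 ± 0.78 on the log2 scale (edgeR adjusted p = 0.145), and that of Grm2 was smaller by a difference of -1.21 ± 0.49 (edgeR adjusted p = 0.251). DESeq2 called 1 receptor and 1012 genes for AKR/J d12 to d15, and edgeR called 1 receptor and 388 genes there without C57BL/6J d12 replicate 3, in place of 0 and 15. For the d15 to d17 change of Cav1-null, edgeR called 2 receptors and 5792 genes without C57BL/6J d17 replicate 1, in place of 0 and 54.

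Over the 27 libraries, which share strain, day and depth, the receptors fell into 2 patterns by Pearson's r of log2 CPM. Grm3, Grm5, Grm7 and Grm8 had r of 0.907 to 0.967 with one another, Grm2 and Grm4 had r of 0.937, and pairs across these sets had r of 0.411 to 0.599. These correlations were taken without removing the trend of GC content. The sets also split by it, with transcripts of 57.1% and 61.6% GC for Grm2 and Grm4 and of 41.9% to 47.2% for the others. The part of GC content in the 2 patterns was not tested. Among 23306 genes, those most like Grm5 were Plppr4 (r = 0.996), Hpcal4 (0.996) and Dlg2 (0.996), a scaffold of the postsynaptic density. Those most like Grm7 were Nap1l3 (0.983), Tmem151a (0.981) and Cdh10 (0.980), an adhesion molecule, and those most like Grm3 were Garnl3 (0.974), Frmpd4 (0.971) and Fam102b (0.971). Grm8 was closest to Cntn1 (0.971), Dmtn (0.970) and Vstm2b (0.961). Grm2 was closest to Slc1a4 (0.955), a neutral amino acid transporter, Ube2o (0.951) and Ccdc92b (0.939), and Grm4 to Atg2a (0.957), Ube2o (0.950) and Iqsec1 (0.943).

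The partners of the receptors were counted in the same comparisons of days, with each share read against that of all genes. The early-phase counts and values of AKR/J rest on the d12 libraries of low neuron and high erythroid marker sums given above, whose part in them was not tested. Over all genes tested, 14.8%, 7.08% and 11.6% rose and 14%, 7.8% and 11.8% fell from d12 to d15, and 11.6%, 7.46% and 14.5% rose and 10.4%, 5.58% and 12.8% fell from d15 to d17, with AKR/J first, C57BL/6J next and Cav1-null last. Of 18 genes of group I signalling, 11, 8 and 10 rose and 0, 1 and 1 fell from d12 to d15, with the strains ordered as before, and the median log2 fold changes were 0.82, 0.83 and 0.55. In the late phase, 10, 4 and 12 rose and 2, 1 and 1 fell, with medians of 0.45, 0.13 and 0.44. Frmpd4, which links Grm5 to Homer scaffolds, rose by 1.47 ± 0.17 for AKR/J, 1.37 ± 0.15 for C57BL/6J and 1.39 ± 0.13 for Cav1-null from d15 to d17 (edgeR adjusted p = 0.00142, 0.00512 and 7.59e-06). Homer3, itself a scaffold that binds Grm5, fell in the late phase by a log2 fold change of -0.85 ± 0.14, -0.94 ± 0.16 and -0.65 ± 0.11 in these strains.

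Of 20 partners of groups II and III, 15, 9 and 9 rose and 0, 0 and 2 fell in the early phase, and 8, 3 and 12 rose and 2, 0 and 1 fell in the late phase. Their median log2 fold changes were 1.16, 0.89 and 0.56 in the early phase and 0.39, 0.21 and 0.44 in the late phase. Elfn2, a postsynaptic adhesion protein that recruits group III receptors, rose by 3.19 ± 0.41 in AKR/J and 2.02 ± 0.48 in C57BL/6J in the early phase (edgeR adjusted p = 0.00197 and 0.0372), and Adcy1, a calcium-stimulated adenylyl cyclase, rose by 1.28 ± 0.07, 0.93 ± 0.24 and 1.30 ± 0.10 from d15 to d17 in the same order. The G protein subunits Gnai2 and Gnai3 fell in the early phase of Cav1-null, by a log2 fold change of -0.77 ± 0.12 and -0.47 ± 0.08. Of 10 genes of the retinal ON bipolar cascade of Grm6, 8 or 9 passed the filter and 2 or 3 rose in each comparison. Rgs11, a regulator of G protein signalling, was among them in every phase and strain, at 1.04 to 2.65. Of 11 genes of glutamate packaging, synthesis and clearance, 1 to 7 rose in a comparison. In the early phase of Cav1-null, 3 rose and 2 fell, with Slc1a1 (1.50 ± 0.13) and Slc1a6 (1.06 ± 0.33), transporters of neurons, among those that rose. Slc1a2, the main glutamate transporter of astrocytes, fell there by a log2 fold change of -0.54 ± 0.09 and Glul, glutamine synthetase, by -0.42 ± 0.09, whereas Slc1a3, another transporter of astrocytes, rose by 1.66 ± 0.19 in the early phase of AKR/J.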

How the data were processed

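Whole fetal brains gave poly-A selected RNA, sequenced as paired reads. Per the study's methods, the authors used FastQC for quality, cutadapt for adaptors, fastp for trimming and STAR for mapping to GRCm39. The deposited gene table holds raw read counts per gene without normalization; the counting tool and its handling of strand are not given in the sources used here. Of the values of 1 to 40 in this table, 58.8% were even numbers, so both mates of a pair may have been counted, and limits that take reads as independent may be too narrow. The deposited splice table holds counts of reads over each junction and library from a repeated STAR mapping, from which the authors removed multi-mapped and short-overhang reads and rare junctions, so a 0 there may be a removed value.

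All genes were fitted in each of 16 comparisons with edgeR 4.0.16 in R 4.3.3 (filterByExpr, TMM scaling, quasi-likelihood test, Benjamini-Hochberg adjustment over all genes tested, threshold 0.05). A fit used the 6 libraries of its groups, or 12 for an interaction. Standard errors were the size of a log2 fold change divided by the root of its F statistic. The scripts were tested on simulated data. CPM were reads per 1000000 of the library total. Levels per kilobase used the union of exons of GENCODE vM39, whereas the authors' annotation was from Ensembl. The members, the partner lists and the markers were chosen with earlier results of these data known. All 7 members were named in every comparison, with the 3 genes of highest Pearson correlation for each member of at least 1 CPM on average, and, of each partner list, up to 2 DE genes of the largest rise and 2 of the largest fall in a comparison of days; a gene of the group I signalling list is not reported here by name. Gm28111, Gm49789, Gm12660, Gm20387, Gm52896 and Mir592 were named for their position. Labels do not say which fetuses shared a litter, so p-values measure only the spread between these libraries. Depth was 26363697 to 39759702 reads, and intervals and limits cover counting error only.

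Alternatives were RLE size factors, library sizes alone, DESeq2 1.42.0, no filter on low counts, 1 model of all 27 libraries, a replicate block, each library left out and, chosen after seeing the data, the removal of GC content and length trends by natural splines with 5 degrees of freedom as offsets.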

Additional observations from a re-analysis of the deposited data

Results flagged for a closer look

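The change of Grm6 between d12 and d15 ran in opposite directions in AKR/J and Cav1-null, where every d15 library lay on one side of every d12 library in CPM. In AKR/J the reads were 4, 8 and 8 on d12 and 2, 2 and 2 on d15, and the mean level changed by -0.157 CPM. In Cav1-null they were 0, 2 and 4 on d12 and 10, 4 and 4 on d15, and the mean level changed by 0.158 CPM. The highest d12 and the lowest d15 library of Cav1-null were tied at 4 reads, and lay apart, at 0.118 and 0.138 CPM, through library depth alone. The difference between these strains was not tested, and counts of this size lie near the limit of detection.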

How the results depend on the processing

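Of 1392 recomputed fold changes of 96 results for the 6 receptors tested, 1192 kept their direction and their side of the threshold, 53 lost the call, 51 gained it and 96 turned their sign. Of the values that turned, those with library sizes alone were, for Grm2, 0.31 in AKR/J d12 to d15 and 0.048 in C57BL/6J d15 to d17; for Grm4, 0.051 in C57BL/6J d15 to d17 and 0.036 and -0.0073 in the early and late interaction of AKR/J; for Grm3 in Cav1-null against C57BL/6J, 0.019 on d12 and 0.11 on d15; for Grm5 in Cav1-null against C57BL/6J, 0.096 on d15, 0.035 on d17 and -0.060 in the late interaction; and for Grm8, 0.039 on d15. This scaling moved the median of all genes by -0.40 to 0.55, by over 0.1 in 8 of 16 comparisons, as given by the alternative itself. With GC content and length trends removed, Grm2 turned to 0.24 in C57BL/6J d15 to d17 and 0.20 in AKR/J against C57BL/6J on d12, Grm4 to -0.41 in AKR/J d12 to d15, 0.29 in C57BL/6J d15 to d17, 0.12 in AKR/J against C57BL/6J on d12, -0.086 in the late interaction of AKR/J and 0.18 and -0.033 in the interactions of Cav1-null, Grm8 to -0.092 in Cav1-null on d12 and Grm3 to 0.045 on d15. In the interactions, Grm8 turned from -0.07 to 0.018 (AKR/J, early) and from -0.09 to 0.10 (Cav1-null, late) with these trends removed, and with library sizes alone Grm3 and Grm8 turned to 0.43 and 0.50 (AKR/J, early) and Grm7 to -0.036 (AKR/J, late). The early interaction of Grm3 in AKR/J turned to 0.022 without the filter, 0.033 with all 27 libraries and 0.057 with the replicate block. That of Grm3 in Cav1-null, 0.0030 as reported, turned to -0.0055 (RLE), -0.0057 (DESeq2), -0.0024 (no filter), -0.013 (all 27 libraries) and -0.0039 (replicate block). The late interaction of Grm7 in Cav1-null turned from -0.06 to 0.00085 (RLE), 0.00083 (DESeq2), 0.027 (no filter) and 0.032 (all 27 libraries). Counts of DE receptors moved by over 1.5 times in several settings and are given with the DE genes of the whole table in brackets, which were 5530 for Cav1-null d15 to d17, 2594 for C57BL/6J d15 to d17, 5529 and 150 for AKR/J on d12 and d17, 0 for Cav1-null on d12 and 15 for the early interaction of AKR/J as reported. With all 27 libraries in 1 model the count was 1 (829) for Cav1-null d15 to d17, 5 (10960) for AKR/J on d12, 2 (838) for AKR/J on d17, 1 (1734) for Cav1-null on d12 and 1 (1660) for the early interaction of AKR/J. Without the filter on low counts it was 2 (6501) for AKR/J on d12, 2 (905) for AKR/J on d17, 1 (750) for Cav1-null on d12 and 1 (544) for the early interaction of AKR/J. DESeq2 gave 3 (1327) for AKR/J on d17, 2 (2027) for Cav1-null on d12 and 1 (1012) for the early interaction of AKR/J. Library sizes alone gave 4 (3067) for C57BL/6J d15 to d17 and 2 (4515) for AKR/J on d12. The causes were not tested.

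The replicate numbers were checked for a pairing of the libraries, by a cut that cannot exclude it. In 0 of 12 comparisons of 2 groups was the correlation of deviations over 0.1 in every same-numbered pair. The correlations were -0.23 to 0.19 in all, and were positive in every pair for AKR/J on d17 (0.0077 to 0.16) and Cav1-null on d12 (0.024 to 0.19). With a replicate block the count was 0 (0 genes in place of 2850) in C57BL/6J d12 to d15, 2 (6566) for AKR/J on d12 and 2 (638) for AKR/J on d17, and the block turned Grm2 in AKR/J d12 to d15 to 0.0071 and Grm5 in Cav1-null on d17 to 0.011.

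With each library left out in turn, the counts ran from 0 to 6 in C57BL/6J d12 to d15, 0 to 3 in C57BL/6J d15 to d17, 0 to 2, 3 to 5 and 0 to 6 for AKR/J on d12, d15 and d17, 0 to 2 and 0 to 1 for Cav1-null on d12 and d17, 0 to 1 in the early interaction of AKR/J and 0 to 2 in the late interaction of Cav1-null. The DE genes of the whole table ran, in the same order, from 0 to 5958, 160 to 6990, 25 to 8009, 5749 to 7828, 54 to 5478, 0 to 1500, 2 to 2865, 3 to 3251 and 0 to 5792. Fold changes that turned ran as follows, all for receptors that were not called. In AKR/J, Grm2 ran from -0.44 to 0.22 and Grm4 from -0.12 to 0.43 in the early phase and Grm4 from -0.090 to 0.20 in the late phase. In C57BL/6J d15 to d17, Grm2 ran from -0.68 to 0.31 and Grm4 from -0.46 to 0.19, and in Cav1-null d12 to d15 Grm2 ran from -0.0089 to 0.34. In Cav1-null against C57BL/6J, the ranges on d12 were -0.22 to 0.12 for Grm3, -0.11 to 0.88 for Grm5 and -0.10 to 0.50 for Grm7, those on d15 -0.19 to 0.080 for Grm3 and -0.21 to 0.099 for Grm5, and those on d17 -0.12 to 0.14 for Grm5 and -0.33 to 0.0070 for Grm8. In the interactions, Grm4 ran from -0.059 to 0.57 (AKR/J, late) and Grm5 from -0.998 to 0.040 (Cav1-null, early) and -0.16 to 0.26 (Cav1-null, late), Grm3 from -0.39 to 0.30 (AKR/J, early) and -0.21 to 0.16 (Cav1-null, early), Grm7 from -0.026 to 0.82 (AKR/J, early), -0.087 to 0.39 (AKR/J, late) and -0.31 to 0.26 (Cav1-null, late), and Grm8 from -0.26 to 0.19 (AKR/J, early), -0.22 to 0.15 (AKR/J, late) and -0.24 to 0.19 (Cav1-null, late). Receptors of few reads, Grm6 above all, limit what these depths can show.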

Other observations

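The splice table held 12 junctions in receptor genes, and 2 genes, Grm5 and Grm8, had alternative donors in the leader of the mRNA that join the same acceptor. In Grm5 the donor nearer to the acceptor, with an intron starting at chr7:87235927, took 12.3% to 42.0% of the reads of both donors in the 8 groups with at least 10 such reads, with a median of 29.3%. The lowest share, in C57BL/6J d17, came from 19 of 154 reads (exact 95% interval 7.59% to 18.6%) and included 2 libraries listed at 0 for that donor, which may be removed values. The highest, in Cav1-null d17, included 1 library listed at 0 for the other donor, as did AKR/J d17, and in the 4 groups with no library listed at 0 the share was 24.2% to 41.4%. In Grm8 the nearer donor took 19.2% to 55.8% in the 8 groups with at least 10 reads, with a median of 40.3%. Its lowest group, AKR/J d15 (exact 95% interval 6.55% to 39.4%), and its highest, C57BL/6J d17 (39.9% to 70.9%), held few reads, at 26 and 43, 1 library of AKR/J d15 was listed at 0, and the difference was not tested. Intervals pool the reads of 3 libraries and cover counting error only.

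A junction assigned to Grm7, from chr6:110618891 to chr6:110622747, differed from the others. Its intron began with CT and ended with AC on the strand of Grm7, which reads as GT to AG on the opposite strand, and no annotated exon of Grm7 ended at either side. It had 0 to 11 reads per library. Grm3 and Grm6 had no junction in the splice table.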
